A study of Rattus norvegicus with 6 samples.

Results

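Satellite glial cells are the flat glia that wrap the cell bodies of sensory neurons in the dorsal root ganglion (DRG). They were followed here through 7 genes that mark them, Fabp7, Glul, Slc1a3, S100b, Apoe, Gja1 and Cdh19, which were taken from the count table by gene name. Each name matched 1 row, so the members make 7 of the 25689 genes in the table, and all 7 were among the 14919 genes that passed the filter on low counts. The samples were DRG cells of wild type Spontaneously Hypertensive Rats (SHRs), given by the sample labels as 6 to 8 weeks old. In 3 samples the rats had undergone ablation of the perirenal adipose tissue (PRATA), and in the other 3 a sham operation, with the ganglia of levels L1 to L2 taken 4 weeks later. Every sample had passed through the same enrichment for neurons, in which ganglia were treated with collagenase and then trypsin, plated, and the loosely attached neurons flushed off the faster-adhering glia after a short culture. The members were therefore read in preparations meant to hold few glia. The labels do not say whether a sample is 1 rat or several pooled rats, so p-values measure the spread between these 6 samples.

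Satellite glia form a closed sheath around each sensory neuron and control what reaches it. They take up glutamate through the transporter encoded by Slc1a3 and convert it to glutamine with the synthetase encoded by Glul, and they are joined to each other by gap junctions of connexin 43, the product of Gja1. Fabp7 encodes a fatty acid binding protein of glia and their precursors, Apoe a lipid carrier that glia secrete, S100b a calcium-binding protein, and Cdh19 a cadherin of the neural crest glial lineage. None of these genes is exclusive to satellite glia. Schwann cells express several of them, macrophages also express Apoe, fibroblasts also express Gja1, and large sensory neurons also express S100b.

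The sequence ACAAT is a core to which Sox proteins bind. The 250 bases before the first listed RefSeq start (build GRCr8) are shown for the members that held it on either strand. Sox10 is the Sox protein of peripheral glia. Capitals mark ACAAT or its reverse complement ATTGT. All 7 members had a window, matched by symbol, and 3 of them held the letters.
Fabp7 (chr20:37669356-37669605, plus strand): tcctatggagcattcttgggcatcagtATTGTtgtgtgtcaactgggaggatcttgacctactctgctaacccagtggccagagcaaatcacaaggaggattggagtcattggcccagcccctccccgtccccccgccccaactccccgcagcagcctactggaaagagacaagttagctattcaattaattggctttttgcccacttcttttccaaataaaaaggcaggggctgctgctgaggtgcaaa
S100b (chr20:12381082-12381331, minus strand): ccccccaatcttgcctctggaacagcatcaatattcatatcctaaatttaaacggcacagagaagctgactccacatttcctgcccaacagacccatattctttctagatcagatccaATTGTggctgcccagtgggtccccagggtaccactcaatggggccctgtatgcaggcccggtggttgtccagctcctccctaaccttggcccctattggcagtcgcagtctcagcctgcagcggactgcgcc
Cdh19 (chr13:28533754-28534003, minus strand): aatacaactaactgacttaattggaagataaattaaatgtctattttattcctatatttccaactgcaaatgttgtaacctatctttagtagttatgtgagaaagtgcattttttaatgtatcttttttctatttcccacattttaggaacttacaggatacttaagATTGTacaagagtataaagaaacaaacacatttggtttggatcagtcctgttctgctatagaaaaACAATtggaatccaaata
The Cdh19 window held the letters once on each strand, the first at 83 bases before the start and the second at 18, and only 28.4% of its bases were G or C, against a median of 52.0% over all windows. The Fabp7 match began 223 bases before the start and the S100b match 132 bases before it. Windows with the letters were common, at 29.6% of the 27457 windows of this length. Only the first listed window of each gene was searched, and Glul, Slc1a3 and Apoe had 2, 3 and 3 windows listed. Whether Sox10 acts on any of these windows was not tested.

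Total counts ran from 5892967 in sham replicate 2 to 15226952 in sham replicate 1, and 3 counts correspond to at most 0.509 CPM (counts scaled to a fixed library total). All levels below are CPM scaled by edgeR's TMM method. The lowest count of any member in any sample was 147, for Gja1 in PRATA replicate 1, whose exact Poisson 95% interval of 124 to 173 covers counting error only, and the highest was 90941, for Apoe in sham replicate 1. Transcript lengths were not used, so the levels of different genes are not compared. Sensory neuron markers were present in all samples at a summed 16586 to 24783 CPM after PRATA and 11507 to 17938 CPM after the sham operation over 22 markers, Nefm, Nefl and Prph among them. Glial RNA was nevertheless present in each preparation. The summed level of the 7 members was 3757, 5947 and 3162 CPM in PRATA replicates 1, 2 and 3 and 7092, 4140 and 8114 CPM in sham replicates 1, 2 and 3. Without Apoe these sums were 437, 718 and 383 CPM after PRATA and 809, 432 and 641 CPM after the sham operation. In bulk RNA, fewer cells of a type and less RNA per cell cannot be told apart.

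All 7 members had a lower fitted mean after PRATA than after the sham operation, by 0.02 to 0.65 on the log2 scale, but none of them passed the test. The test was edgeR's two-sided quasi-likelihood test. Its p-values, adjusted by the Benjamini-Hochberg method across the 14919 genes, lay for the members between 0.304 and 0.967. No member reached an unadjusted p under 0.05, where 18.3% of all genes tested did so, 10.1% downward and 8.19% upward, and in no member did the groups separate, where 11.2% of all genes had every PRATA sample below every sham sample. At an adjusted p under 0.05 edgeR called 0 genes of the whole table, with 2734 at an unadjusted p under 0.05, limma-trend also called 0, and DESeq2 and limma voom with sample quality weights called 728 and 1173, with 0 members among them. Of all genes tested, 48% had a log2 fold change below 0. The median log2 fold change of the members was -0.48, beside 0.02 over all genes tested. The members' median was -0.92 without PRATA replicate 2, -0.75 without sham replicate 2, and -0.27 and -0.25 without PRATA replicates 1 and 3. In PRATA replicates 1 and 2 and sham replicates 2 and 3 alone it was -0.23. The plot of the members by sample shows the 2 groups overlapping in every panel.

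**Figure D1:**
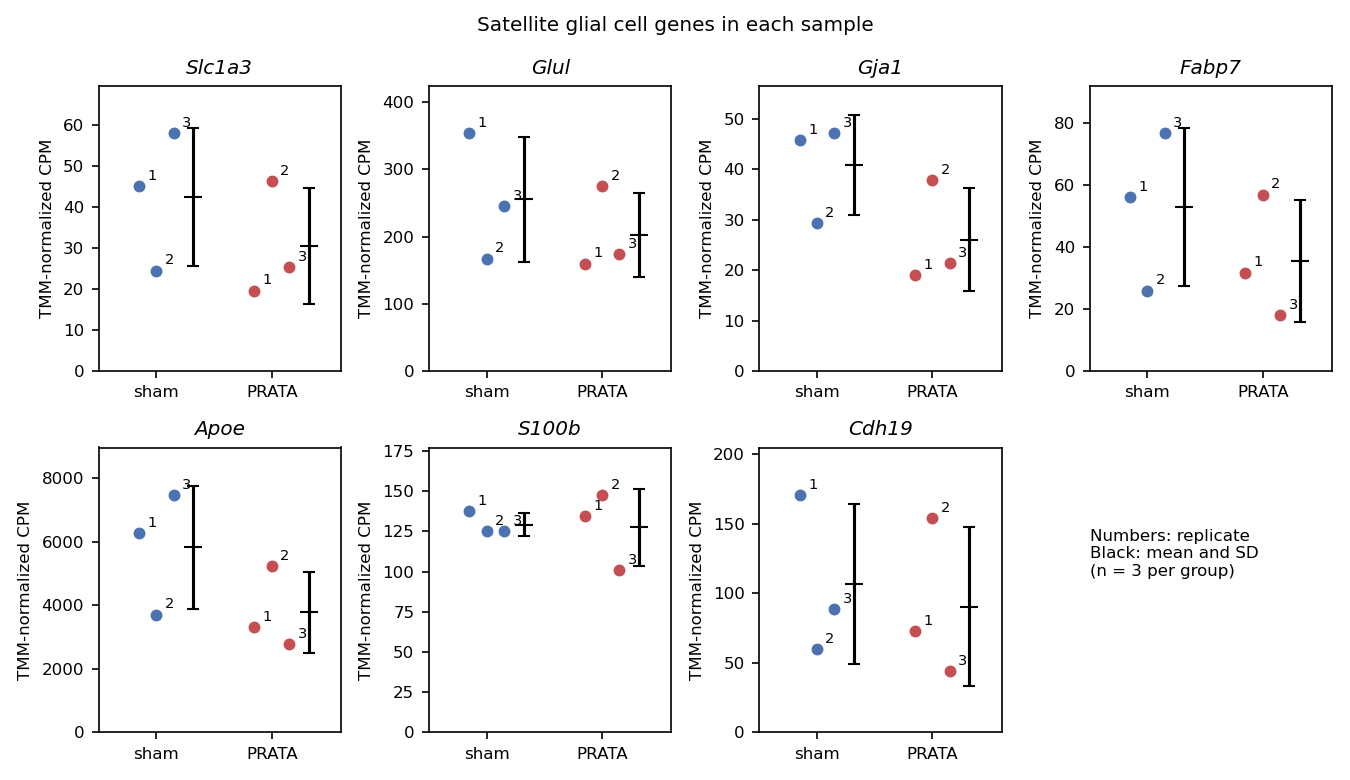
TMM-normalized level (CPM, linear axis from 0) of each member in the 3 sham (blue) and 3 PRATA (red) samples, numbered by replicate, with the mean and SD of each group in black. PRATA replicate 2 sits among the sham samples and sham replicate 2 among the PRATA samples for most genes, while the S100b points lie close together.

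The glutamate genes came first among the functions that satellite glia are known for. Slc1a3 (ENSRNOG00000016163), which encodes the glial glutamate transporter GLAST, was at 19.6, 46.5 and 25.3 CPM in PRATA replicates 1, 2 and 3 and at 45.1, 24.5 and 58.0 CPM in sham replicates 1, 2 and 3. PRATA replicate 2 reached the level of sham replicate 1, and sham replicate 2 that of PRATA replicate 3. The group means were 30.5 ± 14.1 CPM after PRATA and 42.5 ± 16.9 CPM after the sham operation (SD, n = 3), which gave -0.48 as log2 fold change (SE, standard error, 0.39, edgeR adjusted p = 0.533). Glul (ENSRNOG00000049560), the glutamine synthetase gene, was at 160, 275 and 174 CPM after PRATA and 353, 167 and 245 CPM after the sham operation. Its highest sample was sham replicate 1, but sham replicate 2 was the second lowest of the 6. The log2 fold change was -0.33 (SE 0.32, edgeR adjusted p = 0.608), with means of 203 ± 62.8 and 255 ± 93.6 CPM (SD, n = 3).

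Gja1 (ENSRNOG00000000805), the connexin 43 gene, had the smallest p of the members. It was at 19.0, 37.8 and 21.4 CPM after PRATA and 45.9, 29.3 and 47.1 CPM after the sham operation, so that the groups overlapped only through PRATA replicate 2, which lay above sham replicate 2. Its means were 26.1 ± 10.3 and 40.8 ± 9.93 CPM (SD, n = 3), which differed by -0.65 on the log2 scale (SE 0.31, edgeR adjusted p = 0.304). The 95% interval of the fold, PRATA over sham, ran from 0.392 to 1.04, and by p Gja1 ranked 3300 of the 14919 genes.

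Of the members, Fabp7 (ENSRNOG00000000814) had the widest range across the 6 samples. Its level was 31.8, 57.0 and 17.95 CPM after PRATA and 56.1, 25.9 and 76.7 CPM after the sham operation, a ratio of 4.27 between the highest and the lowest sample. The means of 35.6 ± 19.8 and 52.9 ± 25.5 CPM (SD, n = 3) gave a log2 fold change of -0.58 (SE 0.48, edgeR adjusted p = 0.545). Apoe (ENSRNOG00000018454) was at 3319, 5229 and 2779 CPM after PRATA and 6283, 3707 and 7473 CPM after the sham operation, and took between 0.273% and 0.740% of all counts of a sample. Both of the highest samples were sham samples and both of the lowest were PRATA samples, with PRATA replicate 2 and sham replicate 2 between them in crossed order. PRATA over sham it was at -0.62 on the log2 scale (SE 0.35, edgeR adjusted p = 0.372), and the 95% interval of the fold ran from 0.371 to 1.13.

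S100b (ENSRNOG00000001295) stood apart as the steadiest member. It was at 134, 148 and 101 CPM after PRATA and 137, 125 and 125 CPM after the sham operation, with means of 128 ± 24.0 and 129 ± 7.06 CPM (SD, n = 3) and a ratio of 1.46 between the highest and the lowest sample. The log2 fold change was -0.02 (SE 0.19, edgeR adjusted p = 0.967), and the 95% interval of the fold, 0.735 to 1.33, was the narrowest among the 7. Cdh19 (ENSRNOG00000029841), by contrast, was at 73.1, 154 and 44.0 CPM after PRATA and 171, 60.1 and 88.9 CPM after the sham operation. Its levels in PRATA replicate 2 and sham replicate 1 exceeded all others, one sample of each group, and the log2 fold change of -0.24 (SE 0.50, edgeR adjusted p = 0.835) had the widest standard error of the members.

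Across the samples the members followed a common order that matched the operation only in part. Sham replicate 3 was the highest sample for 4 members, sham replicate 1 for 2 and PRATA replicate 2 for 1. PRATA replicate 2 and sham replicate 1 were among the 3 highest samples for all 7 members and sham replicate 3 for 6 of them, whereas PRATA replicate 3 and sham replicate 2 were among the 3 highest for 0 members. PRATA replicate 3 was the lowest sample for 4 members and PRATA replicate 1 for the other 3. S100b was the exception, with PRATA replicate 1 above sham replicate 3. The likeness of 2 members was measured as the root mean square difference of their log2 levels over the 6 samples, each centred on its own mean. Apoe and Gja1 were the closest pair, at 0.16 log2 units, followed by Slc1a3 with Gja1 at 0.20 and Slc1a3 with Apoe at 0.22, while Fabp7 and S100b were the farthest apart at 0.62. All values of a pair come from the same 6 libraries and share their depth and composition.

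The sensory neuron markers ran the other way in the same libraries. Their mean log2 CPM, centred over the 6 samples, was 0.38 in PRATA replicate 1 and 0.42 in PRATA replicate 3, where the members averaged -0.41 and -0.63. It was -0.54 in sham replicate 1 and -0.31 in sham replicate 3, where the members averaged 0.53 and 0.46. In PRATA replicate 2 and sham replicate 2 the neuron markers were near their mean, at -0.02 and 0.07, and the members were at 0.40 and -0.34. Of the 22 neuron markers, 22 had a log2 fold change above 0, with a median of 0.45, and 1 of them, Pou4f1, a transcription factor gene of sensory neurons, passed an unadjusted p under 0.05 with a log2 fold change over 1, a pair of thresholds that 1.17% of all genes passed upward. Subtracting the sample mean of a list shifts the log2 difference between PRATA and sham by the same amount for every gene. The change it makes is therefore that of the list mean and is not particular to a member. With the mean of the neuron markers subtracted, the difference was lower for all 7 members. It ran from -0.56 log2 units for S100b (SE 0.36) to -1.19 for Gja1 (SE 0.59), with Apoe at -1.14 (SE 0.62). When the mean of 7 genes shared by satellite glia and Schwann cells was subtracted instead, the difference narrowed to -0.15 for Apoe, -0.21 for Gja1, -0.12 for Fabp7 and -0.02 for Slc1a3 (SEs 0.22, 0.25, 0.30 and 0.34). In the same comparison Glul, S100b and Cdh19 were higher after PRATA by 0.16, 0.43 and 0.17 log2 units (SEs 0.24, 0.37 and 0.22). The pan-glial mean moved with the members across the libraries and the neuron mean largely against them, and the part of either in the differences was not tested.

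**Figure D2:**
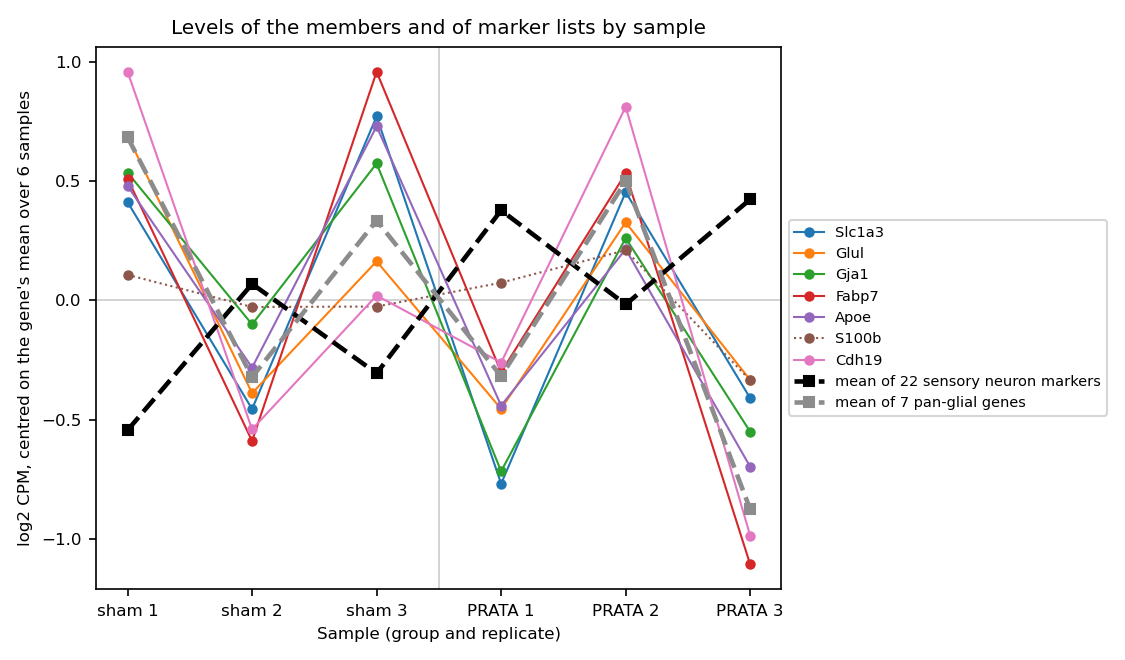
Log2 CPM of each member in the 6 samples, centred on the gene's own mean (coloured lines), with the mean of 22 sensory neuron markers (black, dashed) and of 7 pan-glial genes (grey, dashed) centred the same way. The members other than S100b (dotted) lie above their own means in sham replicates 1 and 3 and PRATA replicate 2, Cdh19 by only 0.02 in sham replicate 3, and the neuron markers are highest in PRATA replicates 1 and 3.

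The 13 further satellite glia genes all passed the filter. Of these, 12 had a log2 fold change below 0, with a median of -0.46 that was -0.91 without PRATA replicate 2, -0.27 without PRATA replicate 3 and -0.15 in the 4 samples other than PRATA replicate 3 and sham replicate 1. Of the 13, 2 passed an unadjusted p under 0.05 with a log2 fold change under -1, thresholds that 3.23% of all genes passed downward. Timp3, which encodes an inhibitor of matrix metalloproteinases, was at 298, 377 and 374 CPM after PRATA and 1657, 633 and 1692 CPM after the sham operation. No PRATA sample reached the sham range, and PRATA replicate 2 stayed with its own group, unlike in the members (log2 fold change -1.93, SE 0.38, edgeR adjusted p = 0.156). Timp3 is also known in fibroblasts and smooth muscle. Ptprz1, a receptor phosphatase gene of glia, was at 71.4, 140 and 87.2 CPM after PRATA and 223, 133 and 254 CPM after the sham operation (log2 fold change -1.03, SE 0.32, edgeR adjusted p = 0.187). The 2 groups overlapped through PRATA replicate 2. Bcan and Ednrb, a proteoglycan and an endothelin receptor gene, had log2 fold changes of -0.79 and -0.64, and Kcnj10, the Kir4.1 potassium channel gene through which satellite glia buffer potassium, was at -0.46 (adjusted p = 0.594, edgeR). Gfap, which rises in satellite glia after nerve injury, was at 83.4, 185 and 40.8 CPM after PRATA and 116, 23.4 and 134 CPM in the sham samples, with 0.17 as log2 fold change (SE 0.67, edgeR adjusted p = 0.915).

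Of the genes shared by satellite glia and Schwann cells, 5 of the 7 tested had a log2 fold change below 0, with a median of -0.67 that was -0.43 without sham replicate 1 and -0.15 in the same 4 samples. Sox10, the transcription factor gene on which peripheral glia depend, was at 59.9, 88.4 and 42.0 CPM after PRATA and 214, 109 and 267 CPM after the sham operation, with no overlap between the groups (log2 fold change -1.63, SE 0.38, edgeR adjusted p = 0.156). It was the 1 gene of this list past the unadjusted p and fold thresholds, which 3.23% of all genes passed downward. Sham replicate 2 was the lowest sham sample for Sox10, as for the members, but PRATA replicate 2 did not reach the sham range. Gpm6b and Cryab had log2 fold changes of -0.92 and -0.88, while Erbb3 and Lgi4, the genes of a neuregulin receptor and of a glial secreted protein, were at 0.89 and 0.77 with PRATA replicate 2 the highest sample of both (adjusted p = 0.450 and 0.488, edgeR).

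The myelin genes of Schwann cells lay on the other side of 0. Of 14 genes, 12 had a log2 fold change above 0, with a median of 0.61 that was 0.27 without PRATA replicate 2 and 1.02 in the same 4 samples. For 5 of the 14 every PRATA sample was above every sham sample, and for 1, Fa2h, every PRATA sample was below. Of all genes, 11.6% and 11.2% were so arranged. Past the unadjusted p and fold thresholds were 2 of the 14 upward, Prx and Ncmap, and 1 downward, Fa2h. Over all genes 1.17% and 3.23% passed. Prx, the gene of periaxin in the myelin sheath, was at 43.4, 88.7 and 35.6 CPM after PRATA and 25.3, 27.5 and 11.4 CPM after the sham operation (log2 fold change 1.39, SE 0.43, edgeR adjusted p = 0.182). Ncmap was near the counting floor in the sham samples, at 0.484, 0.780 and 0.189 CPM against 1.68, 4.30 and 1.58 CPM after PRATA (log2 fold change 2.44, adjusted p = 0.169, edgeR). Fa2h, which makes hydroxylated myelin lipids, went against the list with a log2 fold change of -1.31 (adjusted p = 0.175, edgeR). PRATA replicate 2 was the highest sample for 12 of the 14 genes. The plot of glial log2 fold changes shows the 4 groups of genes side by side.

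**Figure D3:**
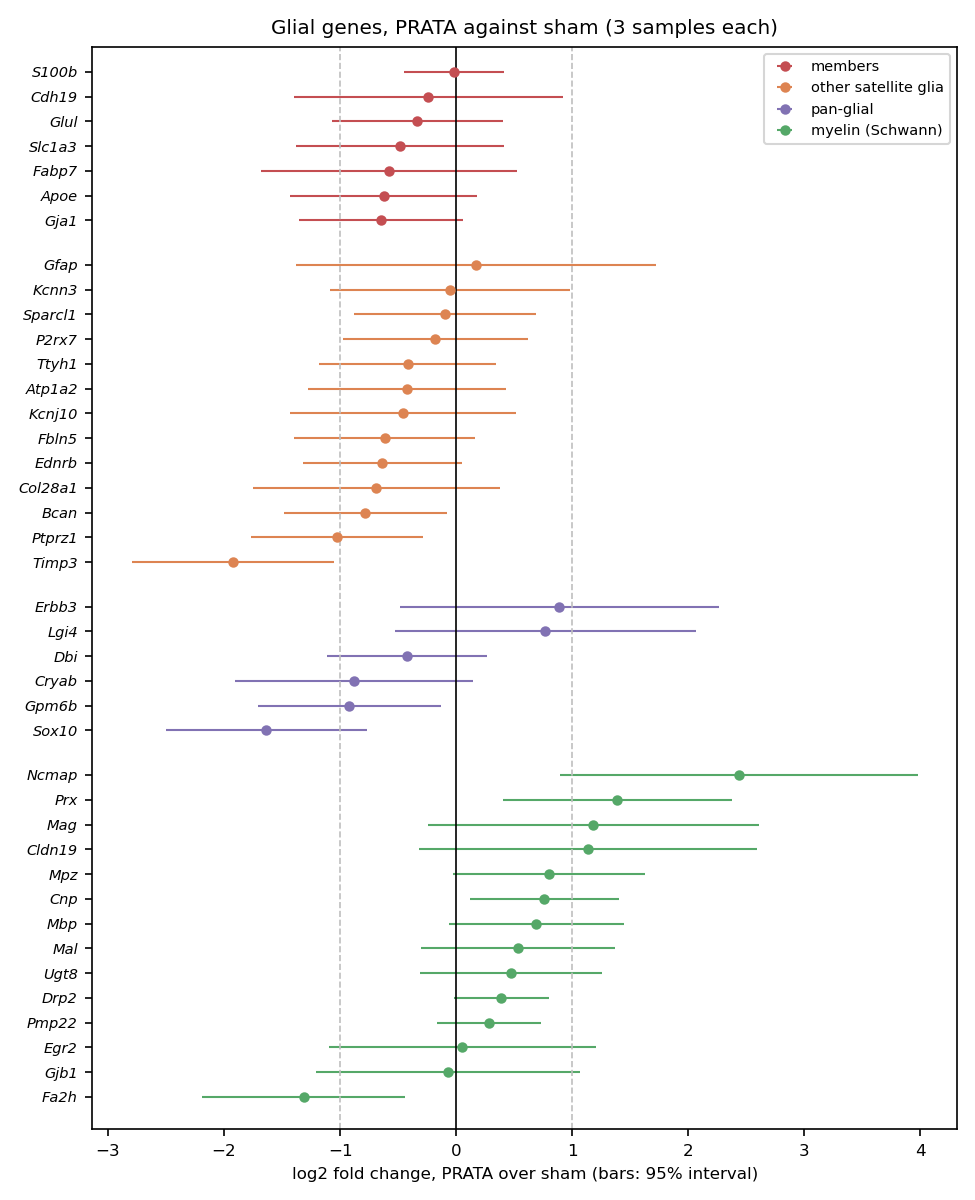
Log2 fold change, PRATA over sham, with its 95% interval from edgeR's quasi-likelihood fit, for the 7 members, 13 other satellite glia genes, 6 pan-glial genes and 14 myelin genes. Dashed lines mark log2 fold changes of -1 and 1, and the intervals of all 7 members cross 0.

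Genes known to rise in injured peripheral glia gave no common direction, with 7 of 12 below 0 and a median of -0.36. That median was -0.08 without sham replicate 1, -0.09 without PRATA replicate 3, -0.68 without PRATA replicate 2, -0.61 without sham replicate 2 and 0.20 in the same 4 samples. Of the 12, 3 reached an unadjusted p under 0.05 upward and 4 downward, where 8.19% and 10.1% of all genes did so. Groups did not overlap for 2 upward and 3 downward, against 11.6% and 11.2% of all genes. Gdnf and Runx2 were past the unadjusted p and fold thresholds downward, as were 3.23% of all genes. Their log2 fold changes were -2.23 and -1.58, with groups that did not overlap (adjusted p = 0.156 for both, edgeR), and Cd44 was at -0.84. Ngfr, the low-affinity neurotrophin receptor gene that sensory neurons also express, was at 0.75 (adjusted p = 0.182, edgeR), above the sham range in all 3 PRATA samples. Markers of other cells were also counted. The summed level of 12 macrophage markers was 48.1 to 201 CPM after PRATA and 68.0 to 155 CPM after the sham operation, that of 9 endothelial markers 73.2 to 148 and 29.7 to 174 CPM, and that of 7 pericyte and smooth muscle markers 179 to 251 and 135 to 279 CPM. The 9 fibroblast markers tested, Col1a1, Col3a1 and Dcn among them, summed to 361 to 2072 CPM after PRATA and 949 to 1940 CPM after the sham operation. The fibroblast sums were highest in PRATA replicate 3, where the members were lowest in sum, and in sham replicate 1, where they were high, and no tested marker of these 4 lists was at 0 in any sample. The part of these cells in the levels of the members was not tested. Vwf of the endothelial list passed the unadjusted p and fold thresholds upward, as did 1.17% of all genes (log2 fold change 1.47, adjusted p = 0.236, edgeR). Its groups overlapped. Of the macrophage, fibroblast and pericyte genes, 0 passed these thresholds in either direction.

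The gene families of the members were read in the same fit. Among the transport and metabolism genes of glutamate and glutamine beside Slc1a3 and Glul, 14 of 19 passed the filter, 11 of them with a log2 fold change above 0 and a median of 0.21, and 0 passed the unadjusted p and fold thresholds. At an unadjusted p under 0.05 alone, 2 were higher and 2 lower, where 8.19% and 10.1% of all genes were so. Slc1a2, which encodes the other glial glutamate transporter of the brain, was near absent at 0 to 7 counts per sample. The neutral amino acid transporter genes Slc1a4 and Slc1a5 had log2 fold changes of -0.69 and -0.99 (adjusted p = 0.233 and 0.236, edgeR), and Slc1a4 was below the sham range in all PRATA samples. The neuronal genes Gls2 and Slc17a6, for a glutaminase and a vesicular glutamate transporter, were both at 0.71 (adjusted p = 0.196 for both, edgeR), with all PRATA samples above the sham range.

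Of the other connexins and pannexins, 8 of 22 passed the filter, and Gjc1, Gja4, Gjb1, Gjb2 and Gja10 had group means of 0.743 to 11.7 CPM. Gjc1 had a log2 fold change of -0.12 (adjusted p = 0.887, edgeR). Panx1 and Panx2, the pannexin channel genes, were at 0.52 and 0.67 (adjusted p = 0.215 and 0.190, edgeR), with all PRATA samples above the sham range. In the family of intracellular lipid binding proteins, Fabp5, another fatty acid binding protein gene, was at 185, 223 and 156 CPM after PRATA and 173, 183 and 259 CPM after the sham operation (log2 fold change -0.12, SE 0.23, edgeR adjusted p = 0.807). Of the 8 genes tested, 0 reached an unadjusted p under 0.05, where 18.3% of all genes did so. Of the 10 genes tested of the S100 family, 0 reached it as well. Their log2 fold changes ran from -0.51 to 0.95 with a median of -0.08.

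Around Apoe, 16 genes of lipoprotein and cholesterol handling were tested, 8 on each side of 0, with a median of -0.05. Lrp8, the Apoe receptor 2 gene, had the smallest p at a log2 fold change of -0.85 (SE 0.26, edgeR adjusted p = 0.183), and its groups overlapped. Abca1, the gene of the transporter that loads lipid onto Apoe, was at -0.10 (adjusted p = 0.846, edgeR). Of 21 cadherin and catenin genes beside Cdh19, 13 were above 0, with a median of 0.14 and 0 past the unadjusted p and fold thresholds. By an unadjusted p under 0.05 alone, 3 were higher and 1 lower, where 8.19% and 10.1% of all genes were so. Cdh2, the N-cadherin gene, was at -0.19 (adjusted p = 0.619, edgeR). Cdh20, the cadherin gene with the highest log2 fold change, was at 7.87, 9.40 and 5.85 CPM after PRATA and 4.35, 3.90 and 5.57 CPM after the sham operation (log2 fold change 0.73, SE 0.29, edgeR adjusted p = 0.241).

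Among 10818 protein-coding genes with a mean of at least 5 CPM, the genes whose centred log2 levels over the 6 samples lay closest to each member were Litaf and Src for Glul (root mean square differences of 0.052 and 0.063 log2 units), Sema6a and Creb3l2 for Slc1a3 (0.077 and 0.081) and Slc4a4 and Itpr3 for Apoe (0.075 and 0.085). Sbf2 and Tmem229a were closest to Gja1 (0.093 and 0.097), Rybp and Bclaf3 to S100b (0.045 and 0.052), Lpar1 and AABR07025295.1 to Cdh19 (0.14 and 0.15), and Fgf2 and Phgdh to Fabp7 (0.17 and 0.18). No member was among the closest 2 genes of another member. With 6 samples and so many genes, such small distances are a description of these libraries.

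Whether the glial genes Sox10, Timp3, Ptprz1, Prx, Fa2h, Gdnf and Runx2 and the neuron gene Pou4f1 passed an adjusted p of 0.05 depended on the tool. With DESeq2 the adjusted p was 0.00153 for Sox10, 3.2e-05 for Timp3, 0.0391 for Ptprz1, 0.0265 for Prx, 0.041 for Fa2h, 2.2e-05 for Gdnf, 0.00124 for Runx2 and 0.000856 for Pou4f1, the log2 fold changes being close to those of edgeR, and over the 18 alternative fits the adjusted p of these 8 genes reached up to 0.551. All 8 also passed with limma voom, and Timp3, Sox10, Fa2h, Gdnf, Runx2 and Pou4f1 passed in edgeR without sham replicate 2. Vwf and Ncmap, also past the unadjusted p and fold thresholds, did not pass with either tool. For Vwf the adjusted p was 0.0756 with DESeq2 and 0.0960 with limma voom. For Ncmap it was 0.0700 with limma voom, and DESeq2 gave no adjusted p.

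The direction of the members depended on single libraries to different degrees. Gja1, Apoe, Slc1a3 and Fabp7 had a log2 fold change below 0 under all 18 alternative fits. Without sham replicate 2, which held the lowest sham level of these 4 genes, the values were -0.83 for Gja1, -0.86 for Apoe, -0.75 for Slc1a3 and -0.90 for Fabp7. Without PRATA replicate 2 they were -1.02, -0.93, -0.92 and -1.10, the lowest of the 18 fits for each. The smallest adjusted p that any alternative gave a member was 0.0668, for Gja1 with limma voom and sample quality weights. PRATA replicate 3 and sham replicate 1 stood apart in which copy of the 7SL RNA took the reads, with 98.9% and 99.5% of the reads of 2 copies on Rn7sl1 against 47.3% to 49.3% in the other 4 samples. In those 4 samples alone, Glul was at 0.07 and Cdh19 at 0.60 on the log2 scale (edgeR, adjusted p = 0.958 and 0.558), S100b at 0.16, Gja1 at -0.44, Apoe at -0.40, Slc1a3 at -0.33 and Fabp7 at -0.23.

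**Figure D4:**
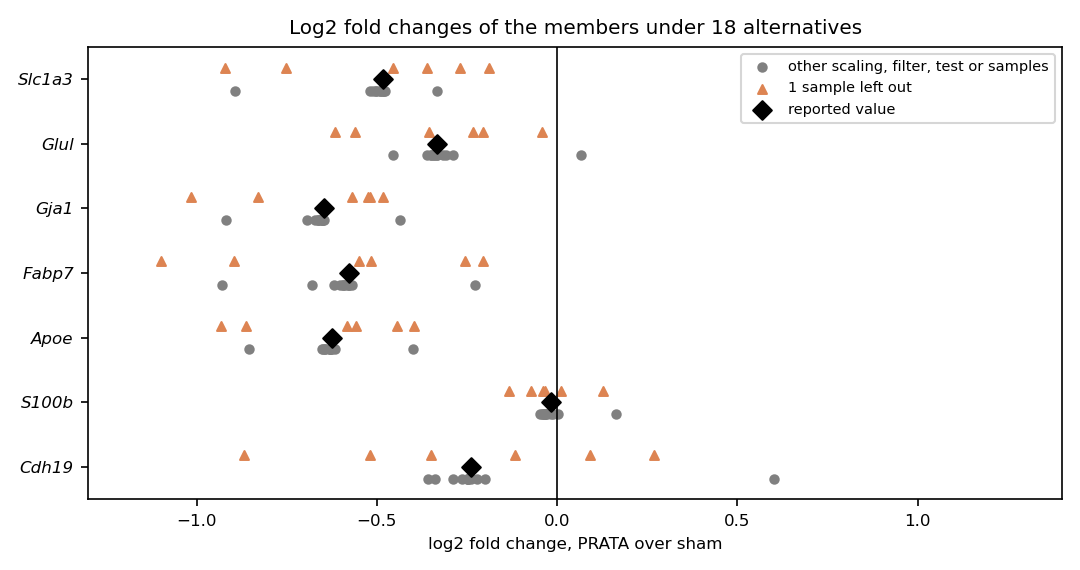
Log2 fold change, PRATA over sham, of each member as reported (black diamond), with 1 sample left out (orange triangles) and under the other scalings, filters, tests and sample sets (grey circles), 18 alternatives in all. Values of Slc1a3, Gja1, Fabp7 and Apoe stay below 0, and those of S100b, Glul and Cdh19 lie on both sides.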

How the data were processed

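The deposited table holds raw counts of reads per gene for 6 samples, which the authors made without normalization. The paper's methods name HISAT2, StringTie and Cuffdiff, while the submitters' processing notes name STAR 2.7.3a, RSEM and DESeq2. Which of these made the counts, the genome build, the annotation release and the strand setting are not given in the sources used here. The paper gives an age of 12 weeks at purchase, against 6 to 8 weeks in the labels.

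The software was edgeR 4.0.16 for the main fit, DESeq2 1.42.0 and limma 3.58.1 for alternatives (R 4.3.3), and matplotlib 3.10.9 under Python 3.11.15 for plots. Genes were kept by filterByExpr (minimum count 10, minimum total 15) and scaled by TMM, and the groups were tested by quasi-likelihood. Log2 levels used CPM with 0.5 added. The 7 members and 15 other lists were chosen with earlier results of these data known, and the lists are described by counts and medians. Named genes were the members, up to 4 genes per list with the smallest p, those past an unadjusted p of 0.05 and a log2 fold change of 1 with separate groups, the most abundant markers and the 2 genes most alike each member, while Kcnj10, Gfap, Erbb3, Lgi4, Slc1a2, Gjc1, Fabp5, Abca1, Cdh2 and the connexins were named for their function or level after values were seen. Crabp2 has 2 rows, of which the one with more counts was used. Promoter windows are from RefSeq tables of build GRCr8, searched for ACAAT on both strands. For single values, 0.10 is the smallest p of the exact two-sided permutation test at 3 samples a group, and it gave 0.20 to 0.90 for the members. The fits were tested on simulated data. Alternatives were other scalings, filters, tests, sample sets and each sample left out, and a covariate for the 7SL copy group was added after seeing the data. Results for a few genes of the lists are not reported here.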

Additional observations from a re-analysis of the deposited data

How the results depend on the processing

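Under 18 alternative fits no member reached an adjusted p under 0.05, and Gja1, Apoe, Slc1a3 and Fabp7 stayed below 0. An unadjusted p under 0.05 was reached in 3 of these fits by Gja1, in 3 by Apoe and in 2 by Slc1a3. For Fabp7, Glul, S100b and Cdh19 it was reached in 0. With each sample left out in turn, the log2 fold change ran from -1.02 to -0.48 for Gja1, -0.93 to -0.40 for Apoe, -0.92 to -0.19 for Slc1a3, -1.10 to -0.21 for Fabp7, -0.62 to -0.04 for Glul, -0.13 to 0.13 for S100b and -0.87 to 0.27 for Cdh19. S100b turned positive without PRATA replicate 3 (0.13) and without sham replicate 1 (0.01), and Cdh19 without the same samples (0.09 and 0.27). In the 4 samples of the larger 7SL copy group, Glul was at 0.066, S100b at 0.16 and Cdh19 at 0.60. With voom quality weights S100b was at 0.0013. Less the pan-glial mean, Glul was at 0.16, S100b at 0.43 and Cdh19 at 0.17, and less the neuron mean, Glul was at -0.83, S100b at -0.56, Apoe at -1.14 and Gja1 at -1.19. The shifts less a list mean are the same for every gene and are set by the group difference of that mean. The cause of the other shifts was not tested. The number of genes at an adjusted p under 0.05, 0 as reported, was 728 with DESeq2, 1173 with voom quality weights, 13 in the 4 samples, and between 0 and 721 with 1 sample left out, the highest being without sham replicate 2. The number at an unadjusted p under 0.05 and beyond a log2 fold change of 1, 657 as reported, was 1379 without a filter, 337 with limma-trend, 1002 with voom quality weights, 994 in the 4 samples, and between 485 and 1034 with 1 sample left out. Under a fit with a replicate block, values were -0.62 for Fabp7, -0.32 for Glul, -0.52 for Slc1a3, -0.04 for S100b, -0.63 for Apoe, -0.69 for Gja1 and -0.34 for Cdh19, with 0 genes at an adjusted p under 0.05, and no call of a member changed. The labels do not say that samples sharing a number belong together, so the numbers were not read as a pairing. Samples sharing a number did not deviate together from the group means (r across genes -0.37, -0.08 and -0.35). With 3 samples a group these values cannot exclude a pairing. Sham replicate 2, the shallowest library, sets the lowest depth.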
